A study of Mus musculus with 12 samples.

Results

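The genes described here encode the proteins that carry a TNF or nucleic acid signal to survival or to necroptosis, a lytic form of programmed cell death. They are Tnfrsf1a, Tnfrsf1b, Tradd, Fadd, Cflar, Cyld, Ripk1, Ripk3, Zbp1 and Mlkl. These 10 genes were chosen by name for their known roles out of the 55401 genes counted in each table. Earlier results of these data were known when they were chosen. Each symbol was taken with the row that held the most counts. All 10 had enough counts to be tested in both comparisons.

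Tumor-associated macrophages (TAMs) were sorted from subcutaneous tumors of B16-F10, a mouse melanoma cell line, and profiled by bulk RNA-seq in 12 samples. The WT samples (n = 3) came from AMPKfl/fl mice, whose AMPK alleles are flanked by loxP sites and which carry no Cre. The AMPK-KO samples (n = 3) came from AMPKfl/flLyz2cre/cre mice, in which Cre expressed from the Lyz2 locus of myeloid cells deletes the same alleles, and both groups were taken on day 15 after implantation, as the methods state. The Cre is inserted in Lyz2 and was absent from the controls, so loss of AMPK and the Cre insertion cannot be told apart. The titles give that genotype for all 3 samples, while the genotype field of replicates 2 and 3 writes Lyz3 and Lyz4 in its place. The early-stage (day 8, n = 3) and late-stage (day 15, n = 3) samples came from tumors of mice labelled wild type. The methods give a C57BL/6 background for all mice, an age of 5 weeks for the experiments and female hosts for the tumors. The study describes the AMPKfl/fl controls as littermates of the AMPK-KO mice. No sample is labelled with a treatment. Nothing in the labels says that the samples of a group came from separate mice, so the p-values measure the spread between these samples, which may be technical. The genotype comparison asks how AMPK affects TAM susceptibility to cell death, and the stage comparison how death programs change as tumors grow.

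When TNF binds TNFR1, the product of Tnfrsf1a, a receptor complex forms through the death domains of TRADD and RIPK1, and ubiquitin chains added there lead to NF-kB activation and survival. When those chains are removed, for which CYLD is known, RIPK1 can move to a cytosolic complex with FADD and caspase 8. The activity of caspase 8 is regulated by cFLIP, the product of Cflar. Where caspase 8 is inactive, RIPK3 phosphorylates MLKL, which breaks the plasma membrane. ZBP1, an interferon-induced sensor of Z-form nucleic acids, reaches RIPK3 without TNF. TNFR2, the product of Tnfrsf1b, lacks a death domain and is abundant on macrophages and regulatory T cells.

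Total counts per library ranged from 71019494 to 84470374. The targeted gene Prkaa1, which encodes the AMPK α1 subunit, had 4959, 4535 and 5165 counts in the WT samples and 3467, 3285 and 3297 in the AMPK-KO samples. Its log2FC (the fitted log2 fold change between groups) was −0.60 (SE 0.07, edgeR adjusted p = 2.3e-04), so its counts were lower but still present. Counts per gene cannot tell intact transcripts from those of a deleted allele. In the stage comparison Prkaa1 had a log2FC of −0.24 (adjusted p = 0.204). The 9 macrophage markers were found in every group, with a summed level of 9381 to 13477 CPM (counts scaled to the library size) per sample. Summed over Uty, Kdm5d, Ddx3y and Eif2s3y, which lie on the Y chromosome, there were 3435 to 4035 counts in the early-stage samples and 0 to 4 in the late-stage samples, against 9229 to 12183 in the WT and AMPK-KO samples. A difference in the sex of the cells therefore cannot be told apart from the stage. The methods name female mice, while Y-linked counts were present in the WT, AMPK-KO and early-stage samples. The source of these counts was not tested. No member is on a sex chromosome.

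In AMPK-KO TAMs, 4 of the 10 genes rose and none fell at an adjusted p under 0.05. These were the nucleic acid sensor Zbp1, the deubiquitinase Cyld, the TNF receptor Tnfrsf1b and the caspase 8 regulator Cflar. Among all 17532 genes tested, 11.3% rose and 9.78% fell by the same rule. The kinases Ripk1 and Ripk3 and the executioner Mlkl did not pass. The WT and AMPK-KO samples did not overlap for 6 of the 10 genes, compared with 37.2% of all genes. The median log2FC of the 10 genes was 0.13 (range −0.18 to 0.51), beside −0.0037 over all genes tested, and no member changed by more than 1 on the log2 scale.

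In late-stage TAMs, 3 of the 10 genes fell and none rose. Zbp1, Mlkl and Tnfrsf1b were the members that passed. Among all 17630 genes tested, 4.88% fell and 4.31% rose. The 10 genes had a median log2FC of −0.16 (range −0.41 to −0.01), beside 0.0027 over all genes, and all 10 estimates were below 0, those of Fadd, Tradd and Cyld turning above 0 when certain single libraries were left out. The stages did not overlap for 4 members, compared with 31.2% of all genes. Both comparisons were fitted apart, on tables that share no sample. Fewer cells of a type and less RNA per cell cannot be told apart in such bulk samples.

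**Figure D1:**
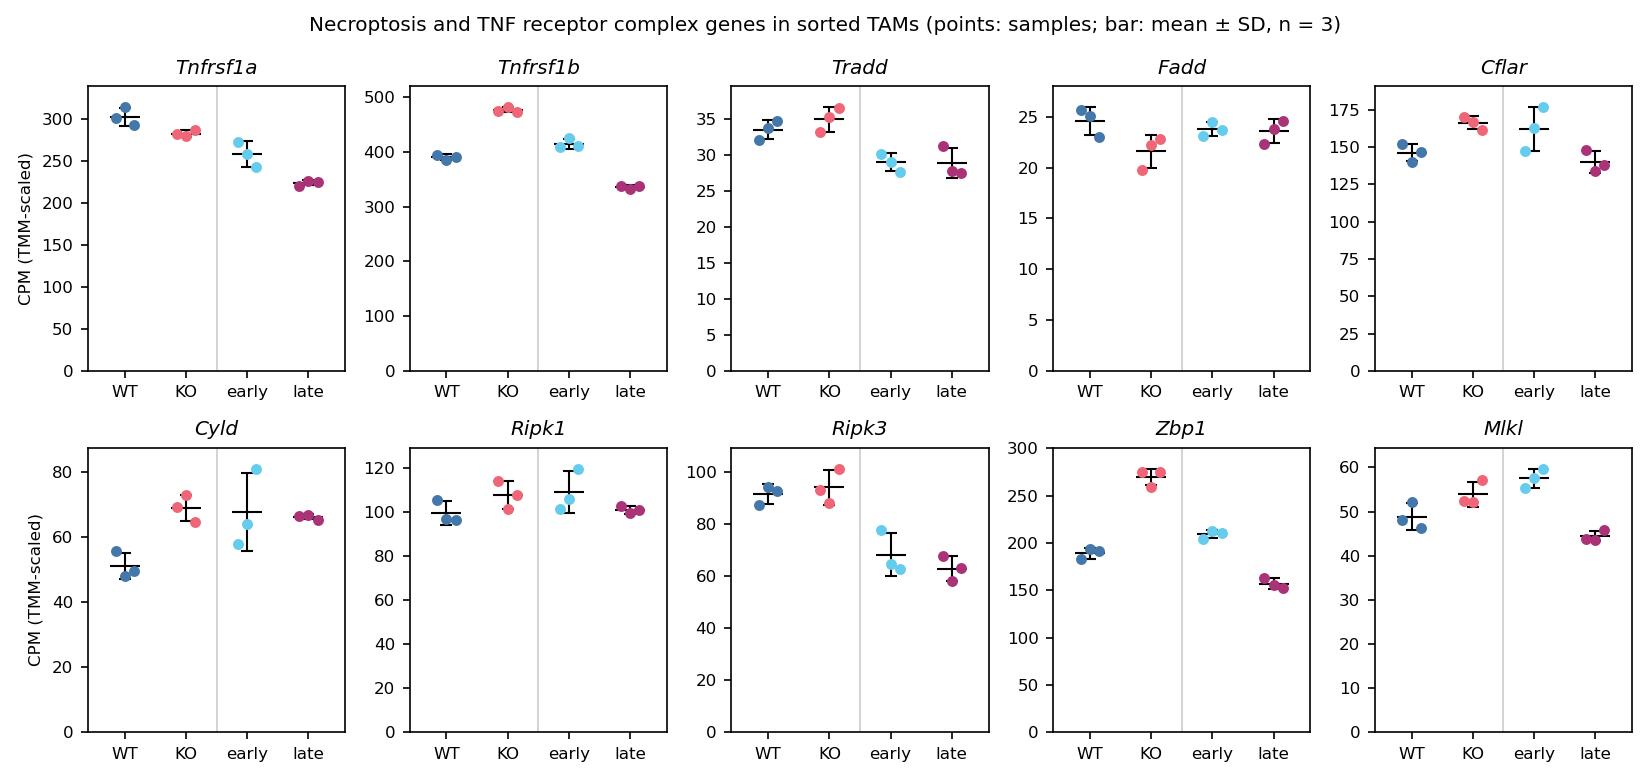
Level of each gene in every sample, in CPM after TMM scaling (vertical axes, each from 0), for the WT, AMPK-KO (KO), early-stage and late-stage groups. Points are samples, bars the mean ± SD (n = 3), and the grey line parts the tables, which were scaled separately. Zbp1 was at 259 to 275 CPM in every AMPK-KO sample and at 183 to 193 in every WT sample.

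Of the promoter windows in RefSeq (build GRCm38.p6, 250 bases before to 50 after a gene's start), 9 belonged to 8 of the 10 genes, the exceptions being Zbp1 and Tradd. Both strands were searched for an interferon-stimulated response element core (ISRE, GAAANNGAA), a STAT core (TTCNNNGAA) and the NF-kB consensus. The stretches of Tnfrsf1b and Cyld are shown because both genes rose in AMPK-KO TAMs and hold more than 1 kind of motif. The Tnfrsf1b stretch is chr4:145246871-145247070 on the minus strand, and its capitals mark, in order, a STAT core that starts 181 bases before the gene's start and an ISRE core on the opposite strand 9 bases before it. The Cyld stretch is chr8:88696818-88696897 on the plus strand, and its capitals mark an ISRE core on the opposite strand, 192 bases before the start, and an NF-kB consensus on the opposite strand, 155 bases before it.
Tnfrsf1b: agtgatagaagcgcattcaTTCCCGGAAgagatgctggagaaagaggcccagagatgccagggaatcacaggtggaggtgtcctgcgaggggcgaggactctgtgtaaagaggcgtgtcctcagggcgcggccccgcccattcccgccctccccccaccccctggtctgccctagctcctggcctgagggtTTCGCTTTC
Cyld: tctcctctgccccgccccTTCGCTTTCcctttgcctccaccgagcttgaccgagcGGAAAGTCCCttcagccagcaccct

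The ISRE core was in 5 of the 9 windows, those of Tnfrsf1b, Cyld, Cflar, Ripk3 and a second Ripk1 start, and in 8.56% of all 32841 windows. The STAT core was in 3 windows, of Tnfrsf1b, Tnfrsf1a and the second Ripk1 start, and in 8.30% of all windows. The NF-kB consensus was in the Cyld window and in 5.81% of all windows. Windows that hold the ISRE core belonged both to members that rose in AMPK-KO TAMs (Tnfrsf1b, Cyld and Cflar) and to members that did not pass (Ripk1 and Ripk3). A match of letters is a description of the window and not evidence of binding.

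Of the receptors, Tnfrsf1b rose in AMPK-KO TAMs and Tnfrsf1a did not pass. Tnfrsf1b (ENSMUSG00000028599.10, chromosome 4, 145213463 to 145246870, minus strand, GRCm38) was at 395, 386 and 392 CPM in the WT samples and 476, 482 and 473 in the AMPK-KO samples. Every AMPK-KO sample was above every WT sample. The mean rose from 391 ± 4.68 to 477 ± 4.67 CPM (SD, n = 3), a log2FC of 0.29 (SE 0.04, edgeR adjusted p = 5.8e-04). Tnfrsf1a (ENSMUSG00000030341.17, chromosome 6, 125349362 to 125362484, plus strand) was at 301, 315 and 294 CPM in the WT samples and 282, 279.9 and 287 in the AMPK-KO samples. Its groups did not overlap either, with WT above AMPK-KO, but the log2FC of −0.10 (95% interval −0.20 to 0.00) had an adjusted p of 0.159.

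Within each library, the log2 ratio of Tnfrsf1b to Tnfrsf1a counts was 0.39, 0.29 and 0.41 in the WT samples and 0.75, 0.78 and 0.72 in the AMPK-KO samples. All AMPK-KO ratios were above all WT ratios, and the means differed by 0.39 (two-sided exact permutation test, p = 0.1, adjusted p = 0.267 over 8 ratio comparisons). An exact test of 3 samples against 3 cannot give a p below 0.1. This ratio does not depend on library scaling.

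In the stage comparison both receptors had lower estimates in late-stage TAMs. Tnfrsf1b was at 409, 425 and 410 CPM in the early-stage samples and 337, 332 and 338 in the late-stage samples. All late-stage samples were below the early-stage ones, with a log2FC of −0.30 (SE 0.06, adjusted p = 0.0155). Tnfrsf1a was at 273, 259 and 243 CPM in the early-stage and 221, 227 and 226 in the late-stage samples. These did not overlap, and the log2FC of −0.20 did not pass (SE 0.07, adjusted p = 0.105). The log2 ratio of Tnfrsf1b to Tnfrsf1a differed by −0.10 with overlapping samples (exact permutation test, p = 0.3, adjusted p = 0.4).

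The Tnfrsf1b call between stages depended on single libraries. It was lost without early-stage replicate 2 (adjusted p = 0.0803) and without late-stage replicate 1 (0.0624), 2 (0.106) or 3 (0.0865), while the log2FC stayed between −0.31 and −0.29 in these fits. Tnfrsf1a passed without early-stage replicate 3 (adjusted p = 0.0338). In AMPK-KO against WT, Tnfrsf1b passed in all 12 alternative fits, with a highest adjusted p of 0.0077.

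**Figure D2:**
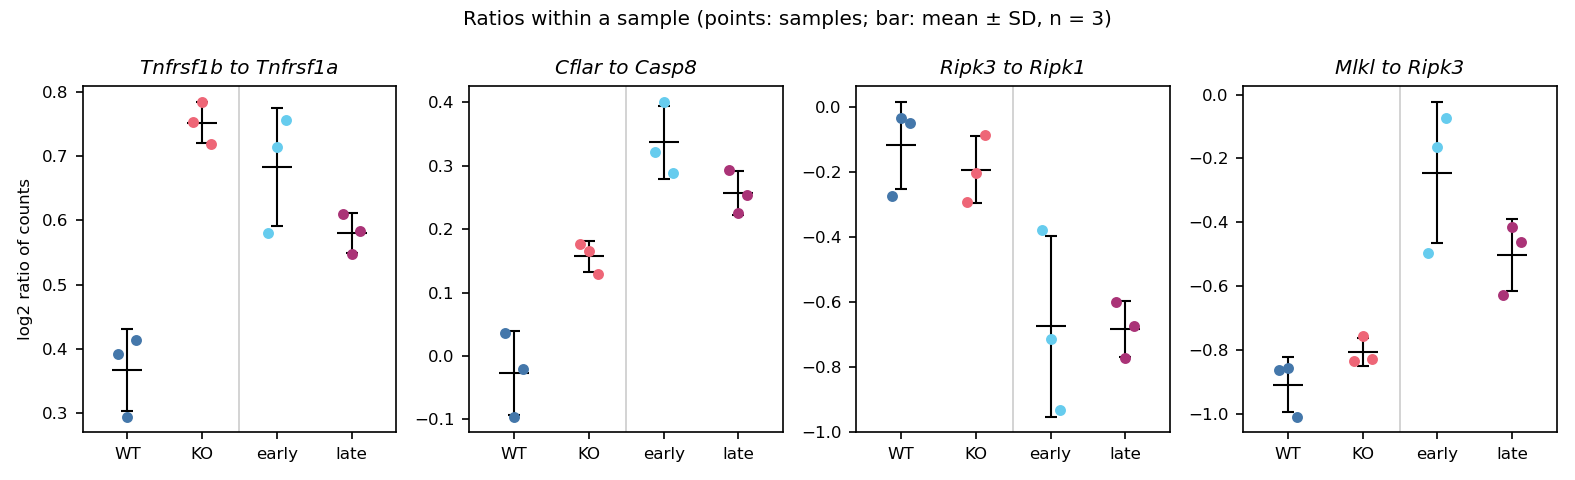
Log2 ratio of counts of a pair of genes within each sample (vertical axes) for the WT, AMPK-KO (KO), early-stage and late-stage groups, with points for samples and bars for the mean ± SD (n = 3). The ratio of Tnfrsf1b to Tnfrsf1a was 0.37 ± 0.06 in WT and 0.75 ± 0.03 in AMPK-KO TAMs, and no ratio separated the stages. The axes do not start at 0.

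Neither adaptor passed in either comparison. Tradd, which links TNFR1 to the ubiquitin ligases (ENSMUSG00000031887.13, chromosome 8, 105258286 to 105264609, minus strand), ranged from 32.0 to 34.6 CPM in WT and from 33.1 to 36.4 in AMPK-KO samples. The groups overlapped, and the log2FC was 0.06 (95% interval −0.09 to 0.22, adjusted p = 0.590). Its stage difference was −0.01 (95% interval −0.22 to 0.20, adjusted p = 0.974).

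Fadd, the death domain adaptor that recruits caspase 8 (ENSMUSG00000031077.7, chromosome 7, 144577318 to 144582463, minus strand), was at 25.6, 25.1 and 23.0 CPM in the WT samples and 19.8, 22.2 and 22.8 in the AMPK-KO samples. The samples did not overlap, by a narrow gap between WT replicate 3 and AMPK-KO replicate 3. The log2FC was −0.18 (95% interval −0.38 to 0.01, adjusted p = 0.171). Between stages Fadd had a log2FC of −0.01 (95% interval −0.22 to 0.19, adjusted p = 0.954). Fadd shares 239 exonic bases (6.12% of its exonic length) with the antisense gene Faddos, and whether reads were counted by strand is not stated, so their reads may be mixed.

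Cflar, whose product cFLIP pairs with caspase 8 (ENSMUSG00000026031.15, chromosome 1, 58711508 to 58758884, plus strand), was at 152, 140.2 and 147 CPM in the WT samples and 170.4, 167 and 162 in the AMPK-KO samples. The groups did not overlap, and the mean rose from 146 ± 5.82 to 166 ± 4.41 CPM (log2FC 0.19, SE 0.05, edgeR adjusted p = 0.0256). The caspase 8 gene Casp8 was at 149 ± 0.883 CPM in WT and 149 ± 1.55 in AMPK-KO samples (log2FC 0.00, 95% interval −0.10 to 0.10, adjusted p = 0.985). The log2 ratio of Cflar to Casp8 counts went from −0.03 ± 0.07 to 0.16 ± 0.02 with no overlap (exact permutation test, p = 0.1, adjusted p = 0.267).

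Of the 4 genes that rose in AMPK-KO TAMs, Cflar had the largest adjusted p. Its call was lost without WT replicate 2 (adjusted p = 0.0806), WT replicate 3 (0.103), AMPK-KO replicate 1 (0.1003) or AMPK-KO replicate 2 (0.0962), and when every gene with at least 1 count was tested (0.0529). Between stages Cflar was at 147, 162 and 177 CPM in the early-stage and 148, 134 and 138 in the late-stage samples. Those overlapped, and the log2FC of −0.21 did not pass (SE 0.08, adjusted p = 0.156), although it did without early-stage replicate 1 (adjusted p = 0.0350). The ratio to Casp8 differed by −0.08 between stages (exact permutation test, p = 0.2, adjusted p = 0.4).

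Cyld encodes a deubiquitinase that trims linear and lysine 63-linked chains (ENSMUSG00000036712.15, chromosome 8, 88697028 to 88751945, plus strand). It was at 55.7, 48.0 and 49.6 CPM in the WT samples and 69.2, 72.8 and 64.7 in the AMPK-KO samples. All AMPK-KO samples were higher, and the mean rose from 51.1 ± 4.07 to 68.9 ± 4.03 CPM, a log2FC of 0.43 (SE 0.07, edgeR adjusted p = 0.0019) that passed in all 12 alternative fits. Between stages Cyld was at 58.0, 64.1 and 81.0 CPM in the early-stage and 66.5, 66.8 and 65.3 in the late-stage samples. Early-stage replicate 3 stood above the others. The log2FC was −0.03 (SE 0.11, adjusted p = 0.902), and 0.12 without that sample (adjusted p = 0.402).

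The kinases did not pass in either comparison. Ripk1, whose kinase domain starts necroptosis and whose scaffold serves survival (ENSMUSG00000021408.15, chromosome 13, 34002363 to 34037147, plus strand), was at 106, 96.7 and 96.2 CPM in the WT samples and 114, 101 and 108 in the AMPK-KO samples. The groups overlapped, with a log2FC of 0.12 (95% interval −0.02 to 0.25, adjusted p = 0.235). In the stage comparison it ranged from 101 to 120 CPM in early-stage and from 99.4 to 103 in late-stage samples (log2FC −0.11, 95% interval −0.29 to 0.07, adjusted p = 0.445). Its exons share 511 bases (6.12%) with the pseudogene Gm17084 on the same strand and 241 bases (2.89%) with Serpinb6a on the opposite strand, so some of its reads are less certain.

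Ripk3, the kinase that activates MLKL (ENSMUSG00000022221.14, chromosome 14, 55784995 to 55788865, minus strand), was at 87.3, 94.5 and 92.9 CPM in the WT samples and 93.2, 88.1 and 101 in the AMPK-KO samples. These overlapped, and the log2FC was 0.04 (95% interval −0.10 to 0.18, adjusted p = 0.712). Between stages Ripk3 had a log2FC of −0.12 (95% interval −0.34 to 0.11, adjusted p = 0.524), and early-stage replicate 1, at 77.8 CPM, was above the other early-stage samples at 64.6 and 62.8. The log2 ratio of Ripk3 to Ripk1 counts differed by −0.07 between genotypes (exact permutation test, p = 0.5, adjusted p = 0.571) and by −0.01 between stages (p = 1, adjusted p = 1), with overlapping samples in both.

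Zbp1 (ENSMUSG00000027514.14, chromosome 2, 173206612 to 173218923, minus strand) had the smallest adjusted p of the 10 genes in both comparisons. It was at 183, 193 and 191 CPM in the WT samples and 275, 259 and 274 in the AMPK-KO samples. The mean rose from 189 ± 5.73 to 269.5 ± 8.89 CPM, a log2FC of 0.51 (SE 0.05, edgeR adjusted p = 4.1e-05), which ranked 341 of the genes tested. The call held in all 12 alternative fits, with a highest adjusted p of 8.4e-04.

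Between stages Zbp1 was at 204, 213 and 211 CPM in the early-stage and 163, 156 and 153 in the late-stage samples. All late-stage samples were below the early-stage ones (log2FC −0.41, SE 0.07, adjusted p = 0.0043). The call held in all 12 alternative fits too, with a highest adjusted p of 0.0452, without late-stage replicate 2.

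Mlkl, the pore-forming executioner (ENSMUSG00000012519.14, chromosome 8, 111311797 to 111338177, minus strand), was at 48.1, 52.2 and 46.2 CPM in the WT samples and 52.3, 52.2 and 57.1 in the AMPK-KO samples. WT replicate 2 and AMPK-KO replicate 2 lay at the same level, and the log2FC of 0.14 did not pass (95% interval −0.01 to 0.29, adjusted p = 0.179). The log2 ratio of Mlkl to Ripk3 counts went from −0.91 ± 0.09 to −0.81 ± 0.04 with no overlap (exact permutation test, p = 0.1, adjusted p = 0.267), a difference of 0.10 that was 0.05 without WT replicate 3.

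In the stage comparison Mlkl was at 55.2, 57.6 and 59.6 CPM in the early-stage and 43.8, 43.6 and 45.8 in the late-stage samples. The stages did not overlap, and the mean fell from 57.5 ± 2.22 to 44.4 ± 1.19 CPM (log2FC −0.37, SE 0.07, adjusted p = 0.0142). The call was lost without early-stage replicate 2 (adjusted p = 0.0727) and without late-stage replicate 1 (0.0652), 2 (0.0902) or 3 (0.0609), at log2FC values of −0.39 to −0.36. The ratio of Mlkl to Ripk3 differed by −0.26 between stages and overlapped (exact permutation test, p = 0.3, adjusted p = 0.4).

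**Figure D3:**
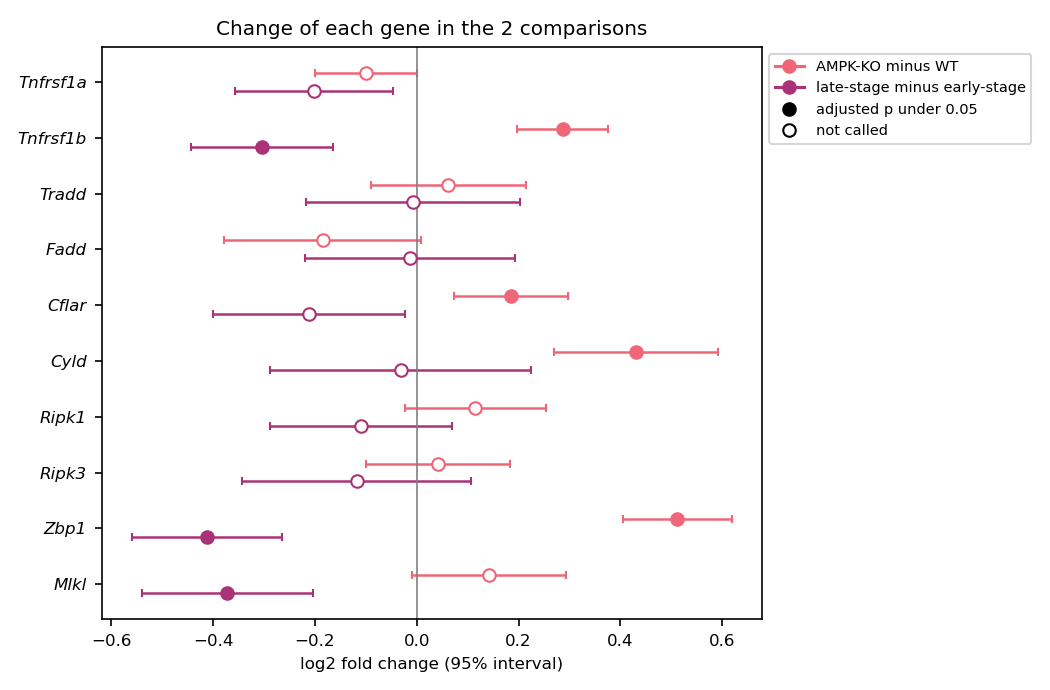
Log2FC of each gene (horizontal axis) with its 95% interval from edgeR, for AMPK-KO minus WT and late-stage minus early-stage, filled where the adjusted p was under 0.05. Zbp1 and Tnfrsf1b are filled in both comparisons, on opposite sides of 0, at 0.51 and 0.29 for genotype and −0.41 and −0.30 for stage.

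Per kb of exon, the TNF receptor genes had the highest levels of the 10 in all 4 groups. In WT samples Tnfrsf1a stood at 117 ± 4.08 CPM per kb, followed by Tnfrsf1b (102 ± 1.23), Zbp1 (53.6 ± 1.62), Ripk3 (39.9 ± 1.63), Mlkl (21.2 ± 1.33), Tradd (17.9 ± 0.704), Ripk1 (11.9 ± 0.636), Cflar (11.5 ± 0.459), Fadd (6.29 ± 0.354) and Cyld (4.06 ± 0.323). Tnfrsf1a was at the 97.4th percentile of 17012 genes on this scale and Cyld at the 55.5th. Neighbours in this order were farther apart than their spread, except Ripk1 and Cflar, whose WT samples overlapped.

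In AMPK-KO samples Tnfrsf1b (125 ± 1.22 CPM per kb) stood above Tnfrsf1a (109 ± 1.44), with no overlap. Cflar (13.1 ± 0.348) and Ripk1 (12.9 ± 0.766), and Fadd (5.53 ± 0.413) and Cyld (5.48 ± 0.320), overlapped there. In early-stage samples Tnfrsf1b was at 109 ± 2.39 and Tnfrsf1a at 99.8 ± 5.89 with no overlap, and in late-stage samples at 88.0 ± 0.908 and 86.7 ± 1.21, where they overlapped. The exonic length of each gene was taken from GENCODE M21 and covers all of its transcripts, so the order depends on that length. Cyld, with 12576 exonic bases, was last per kb in WT samples. Its WT mean of 51.1 CPM was above those of Mlkl (48.8), Tradd (33.4) and Fadd (24.6).

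**Figure D4:**
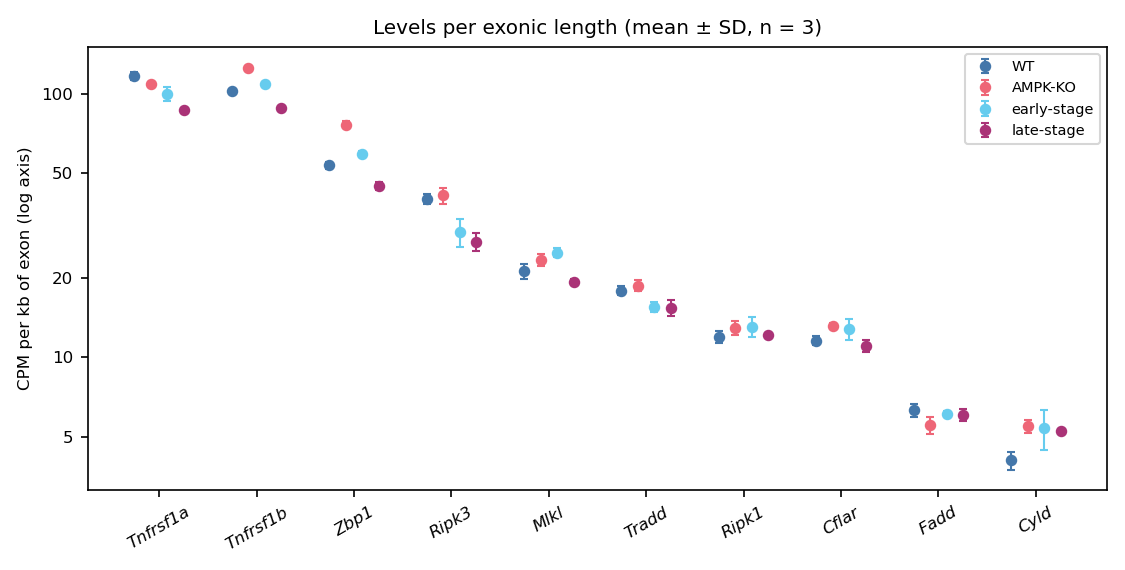
Mean level of each gene in CPM per kb of exon (vertical log axis) in the 4 groups, with SD over 3 samples, ordered by the WT level. The receptor genes lie between 86.7 and 125, and Fadd and Cyld between 4.06 and 6.29.

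The pathway around these members was followed with 54 other genes in 8 roles, all of which were tested. They were chosen for their known functions, with earlier results of these data known. Counts of this list are therefore descriptions and not a test of it. In AMPK-KO TAMs 23 of them rose, 3 fell and 28 did not pass, with a median log2FC of 0.17. The counts stand beside the 11.3% of all genes that rose and 9.78% that fell. Samples did not overlap for 30 of the 54, beside 37.2% of all genes. Without WT replicate 3, 15 rose and 2 fell, while the shares of all genes were 7.4% and 5.87%.

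Among the 4 ligand genes the direction was mixed. Tnf, the ligand of both receptors, was at 56.4, 60.1 and 60.1 CPM in the WT samples and 49.9, 40.8 and 53.7 in the AMPK-KO samples. It fell by 0.29 on the log2 scale (edgeR adjusted p = 0.0481), a call lost in 5 of 12 alternative fits. These were the fits with every gene of at least 1 count (adjusted p = 0.0977), without WT replicate 2 (0.115) or 3 (0.148) and without AMPK-KO replicate 1 (0.0916) or 2 (0.137), the last with a smaller log2FC of −0.19. Fasl, named after its values were seen as are Lta, Tnfsf10, Irf7, Stat2 and Irf9, rose from 0.875 ± 0.219 to 3.21 ± 0.486 CPM (log2FC 1.88, adjusted p = 4.3e-04). Lta rose by 1.11 (adjusted p = 0.0227, without a call in 3 of 12 alternative fits, up to 0.0771) and Tnfsf10 by 0.68 (adjusted p = 0.0027). Fasl and Lta are typical products of T and NK cells. Markers of these and of some other cells were also higher in these samples, as given below. Their part in the rise of any gene was not tested.

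Of the 12 genes of the ubiquitin machinery at TNFR1, 8 rose and none fell, with a median of 0.30. Birc3, which encodes the ligase cIAP2, rose from 72.5 ± 1.95 to 105 ± 2.53 CPM (log2FC 0.54, edgeR adjusted p = 4.5e-05). Of 11 checkpoint kinases and adaptors 2 rose, and of 6 other receptors none passed. Among the 3 death complex partners, the Z-RNA editor gene Adar rose by 0.20 (adjusted p = 0.0203), Casp8 is given above, and Ticam1, which encodes the adaptor TRIF, had a log2FC of 0.04 (adjusted p = 0.766). The Adar call was lost without WT replicate 2 (adjusted p = 0.0656) or 3 (0.0981) and without AMPK-KO replicate 1 (0.0721) or 2 (0.0919).

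Of 8 modulators of RIPK3 and MLKL, 1 rose and 1 fell. Hsp90aa1, which encodes a chaperone of RIPK3 and MLKL, fell from 765 ± 5.02 to 556 ± 13.5 CPM (log2FC −0.46, edgeR adjusted p = 2.2e-05). Among the 5 NF-kB genes 3 rose and 1 fell. The latter was the inhibitor gene Nfkbia, which fell from 335 ± 20.3 to 269 ± 8.07 CPM (log2FC −0.32, adjusted p = 0.0021).

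All 5 interferon-activated transcription factor genes rose, with a median of 0.46. Irf1 was at 142, 145 and 144 CPM in the WT samples and 310.2, 288 and 298 in the AMPK-KO samples (log2FC 1.06, edgeR adjusted p = 3.3e-07). Stat2 rose by 0.46, Irf7 by 0.38 and Irf9 by 0.20. The Irf9 call (adjusted p = 0.0222) was lost without WT replicate 3 (0.0558) and without AMPK-KO replicate 1 (0.0892) or 2 (0.0837).

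Between stages, 2 of the 54 genes rose, 1 fell and 51 did not pass, beside 4.31% and 4.88% of all genes. Tnip1, a ubiquitin-binding partner of A20, rose by 0.32 (adjusted p = 0.0228) and the NF-kB subunit gene Nfkb1 by 0.26 (adjusted p = 0.0473). Tnfrsf21, which encodes death receptor 6, fell by 0.32 on the log2 scale (adjusted p = 0.0162). None of these 3 passed without early-stage replicate 2 or with any single late-stage sample left out, and 10 genes passed without early-stage replicate 1, where 15.4% of all genes passed. The Nfkb1 call was also lost without early-stage replicate 3 (adjusted p = 0.0569), with upper-quartile scaling (0.0599) and with every gene of at least 1 count (0.0821). Tnf (log2FC 0.19, adjusted p = 0.557), Casp8 (−0.13, 0.388), Ticam1 (0.15, 0.329) and Adar (0.05, 0.735) did not pass.

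**Figure D5:**
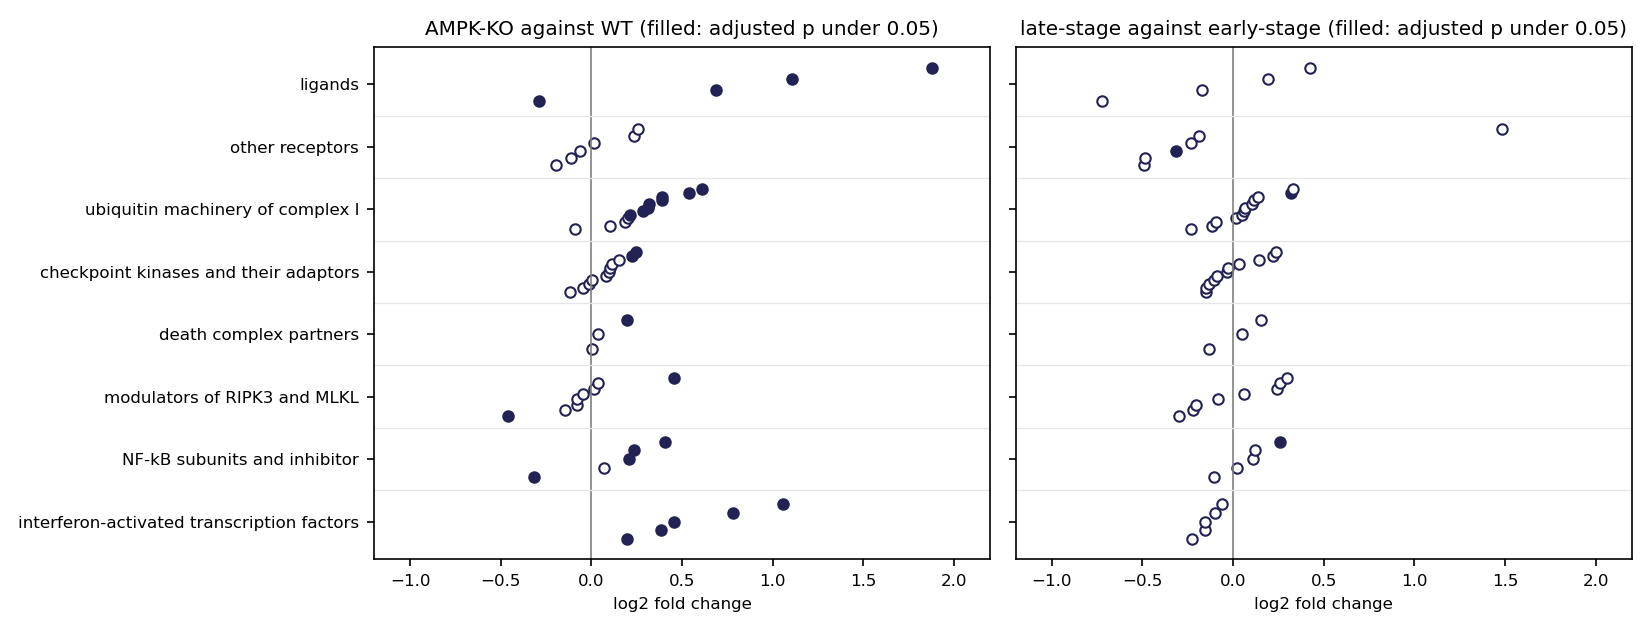
Log2FC (horizontal axis) of the 54 pathway genes by role, in AMPK-KO against WT (left) and late-stage against early-stage TAMs (right), with filled points at an adjusted p under 0.05. All 5 interferon-activated factors are filled at left and none at right.

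The genes whose pattern over the 6 samples lay nearest to that of Zbp1 were found by the root mean square gap of centred log2 CPM. In WT and AMPK-KO samples, over 9162 genes of at least 10 CPM, these were Cxcl10 (gap 0.0245), Cxcl16 (0.0267), Clec4a3 (0.0283), Pot1b (0.0333) and I830077J02Rik (0.0335). Cxcl10, an interferon-induced chemokine gene, was at 181 ± 7.96 CPM in WT and 257 ± 11.1 in AMPK-KO samples. In early- and late-stage samples, over 9171 genes, they were Mtss1 (0.0200), Sestd1 (0.0298), Samhd1 (0.0364), Rgl1 (0.0371) and Csf2rb (0.0386). None of these genes was in both lists. The likeness is a description of 6 samples of the same libraries.

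Markers of other cells moved with the groups, and their part in the results above was not tested. The sort gate of the methods was CD45+CD11b+Ly6C-Ly6G-F4/80+, while legends in the supplement, as read here, write Ly6C+. In AMPK-KO samples the summed level of 3 monocyte markers was 739 to 769 CPM against 412 to 456 in WT, and all 3 rose. The 5 NK cell markers were at 73.8 to 75.6 against 29.7 to 32.8 CPM (5 rose), the 6 T cell markers at 153 to 159 against 87.4 to 95.3 (5 rose), and the 6 conventional dendritic cell markers at 125 to 132 against 80.3 to 90.8 (6 rose). The 6 neutrophil markers were at 158 to 160.2 against 95.1 to 102 CPM (3 rose), with no count of the defining gene Ly6g. Csf3r made up most of this sum, with a mean of 154 CPM in AMPK-KO and 96.5 in WT samples. S100a8 had means of 2.10 and 1.05 CPM, and S100a9 of 2.47 and 0.697.

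Fibroblast markers were at 740 to 819 CPM in AMPK-KO against 569 to 616 in WT samples (5 of 5 rose), and endothelial markers at 116 to 119.5 against 49.8 to 57.9 (2 of 4 rose, 1 fell). Of the endothelial markers, Pecam1 rose from a WT mean of 37.5 to 91.2 CPM and Kdr from 12.5 to 24.4. Cdh5 fell from 3.74 to 2.53 CPM, and Emcn was at 0.175 in WT and 0.159 in AMPK-KO samples. The 7 melanoma markers were lower, at 676 to 716 against 998 to 999 CPM (6 fell), as were B cell markers, at 19.9 to 22.1 against 30.9 to 32.5 (4 of 5 fell, 1 rose), and erythroid markers, at 4.99 to 5.53 against 14.5 to 16.9 (2 of 3 fell). Of the 9 macrophage markers 2 rose and 1 fell. None of 3 plasmacytoid dendritic cell markers passed, and basophil or mast cell markers summed to at most 0.416 CPM.

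In late-stage samples the monocyte markers were at 169 to 202 CPM against 462 to 534 in early-stage samples (3 of 3 fell), NK cell markers at 36.1 to 49.5 against 82.6 to 93.2 (4 of 5 fell), melanoma markers at 767 to 1203 against 1663 to 1807 (5 of 7 fell) and fibroblast markers at 392 to 553 against 798 to 876 (3 of 5 fell). T cell markers were higher, at 171 to 196 against 134 to 147 CPM (2 of 6 rose), and so were B cell markers (3 of 5 rose). Of the macrophage markers 1 of 9 rose, with sums of 12388 to 12515 CPM in late-stage and 9381 to 11690 in early-stage samples. Of the other lists, 2 of 6 neutrophil, 1 of 4 endothelial and 1 of 3 erythroid markers fell, and of 6 conventional dendritic cell markers 1 rose and 1 fell. None of the plasmacytoid dendritic cell markers passed, and basophil or mast cell markers summed to at most 0.536 CPM.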

How the data were processed

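Bulk RNA-seq was performed on sorted TAMs. Raw counts per gene were deposited by the authors, who, per the methods, mapped reads with HISAT2 and counted them with featureCounts. Versions, strand and treatment of multiply mapped reads are not given in the sources used here. The submitters' processing notes name mm10 and GRCm38, and 54349 of 55401 identifiers matched GENCODE M21 with their version, among them all members.

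Counts were filtered (filterByExpr), scaled by TMM and compared by edgeR 4.0.16 (glmQLFit, glmQLFTest; R 4.3.3) without covariates, each table apart. P-values were adjusted by Benjamini-Hochberg over all genes tested, and a gene was called where this was under 0.05, whatever its fold change. CPM values use TMM-scaled library sizes. Log2 ratios of counts were compared by exact permutation tests, with 0.5 added to each count only as an alternative. The scripts were tested on simulated data. Alternatives were other scaling and filters, DESeq2 1.42.0, a replicate block, a fold threshold, and each library left out. The methods' rule (DESeq2, unadjusted p under 0.05, absolute log2 fold change above 1) was tried too.

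The genes named were all members, the 3 higher and 3 lower genes of the wider list with the smallest adjusted p, Prkaa1, Casp8, Ticam1, Adar, Tnf and the 5 genes most like the leading member, and 1 gene that the rule covers is not reported here. Members and lists were chosen with earlier results of these data known.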

Additional observations from a re-analysis of the deposited data

How the results depend on the processing

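With a fold threshold (absolute log2 fold change above 1), 0 members and 3 wider-list genes were called in AMPK-KO against WT, and 0 and 0 between stages (3.34% and 1.87% of all genes). With the methods' DESeq2 rule the counts were 0, 3, 0 and 1 (5.07% and 4.07%). DESeq2 at an adjusted p called 9 wider-list genes between stages, beside 15.1% of all genes. Leaving out a library gave 3 to 4 members and 17 to 26 wider-list genes for genotype (17 without WT replicate 3), while 13.3% to 22.1% of all genes were called. For stage it gave 1 to 4 members and 0 to 10 wider-list genes, while 3.55% to 15.4% of all genes were called. The stage counts were 1 and 0 without early-stage replicate 2 or any single late-stage sample. All of these fits had fewer samples than the main fit. Deviations of same-numbered samples had correlations of −0.0039 to 0.0423 for genotype and 0.0132 to 0.0255 for stage. Such values cannot show whether these samples were paired by design. The replicate block called 4 members and 26 wider-list genes for genotype, beside 22% of all genes. For stage it called 3 and 2, beside 8.04% of all genes. There it ended the call of Nfkb1 (edgeR adjusted p = 0.0834), and it changed no other call of a named gene.

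The estimates that changed sign were small, and ranges are over fits without 1 library. For genotype, Ripk3 ranged from −0.015 (without AMPK-KO replicate 3) to 0.087 and Casp8 from −0.0064 to 0.0076, with −0.012 under upper-quartile scaling and −0.0062 with every gene of at least 1 count. For stage, Fadd ranged from −0.044 to 0.027 (without late-stage replicate 1), Tradd from −0.068 to 0.027 (without late-stage replicate 3), Cyld from −0.13 to 0.12 and Tnf from −0.016 to 0.37 (Cyld above and Tnf below 0 without early-stage replicate 3). The log2 ratio of Ripk3 to Ripk1 ranged from −0.14 to 0.14 between stages (0.14 without early-stage replicate 1 and 0.037 without late-stage replicate 2). The cause was not tested. The scaling alternatives shifted the median of all genes to at most −0.0175. With 3 samples a group, an exact test cannot pass 0.05.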
